A study of Mus musculus with 30 samples.

Results

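The genes described here are 9 genes of retinoid handling in the photoreceptor and its neighbours: Abca4, Rdh8, Rdh12, Rdh11, Rdh14, Rdh10, Dhrs3, Rbp3 and Rlbp1. They were taken by gene name from the 42439 gene identifiers of the deposited count tables, and their expected counts were summed per gene. RNA was measured in 30 libraries of mouse neural retina, in 10 groups of 3 libraries, by stranded poly(A) sequencing. Every mouse, controls included, carried Abca4-/-Rdh8-/- on a C57BL/6J background and was male or female and 4 to 6 weeks old. All were housed in a cycle of 12 h of light at no more than 10 lux and 12 h of darkness. In the mixture experiment the groups were BMT (bromocriptine, metoprolol and tamsulosin before light), MDB (metoprolol, doxazosin and bromocriptine before light), light with DMSO, and no light with DMSO. In the single-drug experiment they were BRM (2-Bromo-α-ergocryptine, or bromocriptine, a dopamine receptor agonist), MTP (metoprolol, a blocker of beta adrenergic receptors), TAM (tamsulosin) and DOX (doxazosin), both blockers of alpha-1 adrenergic receptors, each before light, and again light with DMSO and no light with DMSO. Injections were intraperitoneal and came 30 min before white light of 10000 lux lasting 30 min, and retinas were taken 24 h after it. Doses, the sex of each library and the number of animals in a library are not stated in the labels or files used, and no group with intact Abca4 and Rdh8 was analysed here, so none of the values bears on the effect of the double knockout itself. The labels do not say that replicates came from separate animals, so p-values measure the spread between these libraries.

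Vision starts when light turns the 11-cis-retinal of a photopigment into all-trans-retinal, a reactive aldehyde that has to leave the photoreceptor. In photoreceptors ABCA4 moves it, bound to phosphatidylethanolamine, across the outer segment disc membrane. Retinol dehydrogenases such as RDH8 and RDH12 then reduce it to retinol. Retinol travels to the pigment epithelium, where it is made into 11-cis-retinal again, with RBP3 carrying retinoids between the cells and RLBP1 holding the 11-cis form in pigment epithelium and Müller glia. Mice that lack ABCA4 and RDH8 clear all-trans-retinal slowly after a bright flash and lose photoreceptors in strong light.

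All 9 genes passed the filter on low counts in both experiments, in which 16007 genes (mixture) and 16249 genes (single-drug) were tested. Library totals ran between 18.5 and 25.8 M counts in the mixture experiment and between 12.0 and 22.2 M in the single-drug experiment. The lowest gene count of any of the 9 in any library was 353, for Rdh14. All 17 rod markers, 12 cone markers and 11 Müller glia markers were above 0 in every library. So were all 14 pigment epithelium markers, a tissue outside the labelled neural retina, whose summed level ran between 279 and 1552 CPM (counts scaled by library size, on TMM-scaled totals). The 6 lens fibre markers summed to between 17.8 and 6410 CPM. Per length, in the FPKM of eXpress summed over the transcripts of a gene and in the no-light retinas of the mixture experiment, Rbp3 was by far the most abundant of the 9 at 1433 ± 127 FPKM (SD, n = 3). Rdh12 followed at 319 ± 41.5, Rlbp1 at 143 ± 6.52, Abca4 at 105 ± 11.1 and Dhrs3 at 56.2 ± 2.44 FPKM. The levels of Rdh8 (29.1 ± 5.76), Rdh11 (27.3 ± 3.42) and Rdh10 (27.3 ± 8.86 FPKM) did not differ beyond their spread. Rdh14 was lowest at 19.1 ± 0.969 FPKM.

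Both disrupted genes still gave transcripts in every library of every group. Abca4 (ENSMUSG00000028125, chr3:122044443-122180061, plus strand, GRCm38.p3) had between 6785 and 18183 expected counts, and Rdh8 (ENSMUSG00000053773, chr9:20818504-20826163, plus strand) between 381 and 985. The labels do not say which exons were removed, and counts are per transcript, so these totals do not check the genotype. Of the 11 Abca4 transcripts in the annotation 1 is protein coding, Abca4-001. It took a median of 97.6% of the gene's count, with a range over libraries of 92.5 to 98.9%. The other 10 are 5 retained-intron and 5 processed transcripts. Of these, Abca4-004, which spans the 3′ part of the gene, varied most in count, between 0.0146 and 760 over the libraries. Rdh8 has 1 annotated transcript, Rdh8-201.

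Light lowered Abca4, Rdh12 and Dhrs3 in both experiments, and each of the 6 drug treatments given before light left them higher than light alone. Abca4, the transporter, had 390.1, 399 and 428 CPM in the light retinas of the mixture experiment, against 683, 578 and 724 CPM in its no-light retinas (replicates 1, 2 and 3, in that order throughout). All light libraries lay below all no-light libraries, and the difference was -0.71 ± 0.12 on the log2 scale (SE), 1.63-fold lower, with an adjusted p of 0.00187 by the quasi-likelihood test of edgeR with Benjamini-Hochberg adjustment over all genes. A gene with an adjusted p under 0.05 is said to be called. Abca4 had 374, 319.8 and 367 CPM in light retinas of the single-drug experiment, against 693, 774 and 821 CPM in its no-light retinas. The groups were again apart, with a log2 difference of -1.11 ± 0.13 (2.15-fold lower, edgeR adjusted p = 0.000113). In whole retinas, fewer cells of a type and less RNA per cell cannot be told apart.

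The annotated start regions of the genes that moved in this way are shown, with that of Rbp3, whose light effect had opposite signs in the experiments. No start of transcription was measured, and the labels do not say whether the Abca4 window is intact in these mice. Sequences are RefSeq promoter windows of GRCm38.p6, with 250 bases before and 50 bases from the annotated start. Capitals mark TAATCC, the core letters of the binding site of the photoreceptor factor CRX, and TGCTGA, core letters of sites of NRL and related factors, on either strand; the motifs do not overlap in these windows. The Abca4 window is chr3:122044210-122044509, plus strand. That of Rdh12 is chr12:79208663-79208962, plus strand. That of Dhrs3, at the start used by the deposited files, is chr4:144892577-144892876, plus strand. That of Rbp3 is chr14:33953753-33954052, plus strand.
Abca4: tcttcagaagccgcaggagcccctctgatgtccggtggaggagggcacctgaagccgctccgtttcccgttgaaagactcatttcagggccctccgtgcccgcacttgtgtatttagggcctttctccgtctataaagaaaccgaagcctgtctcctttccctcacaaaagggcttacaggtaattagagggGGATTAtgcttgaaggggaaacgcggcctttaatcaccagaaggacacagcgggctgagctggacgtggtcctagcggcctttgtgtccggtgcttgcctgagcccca
Rdh12: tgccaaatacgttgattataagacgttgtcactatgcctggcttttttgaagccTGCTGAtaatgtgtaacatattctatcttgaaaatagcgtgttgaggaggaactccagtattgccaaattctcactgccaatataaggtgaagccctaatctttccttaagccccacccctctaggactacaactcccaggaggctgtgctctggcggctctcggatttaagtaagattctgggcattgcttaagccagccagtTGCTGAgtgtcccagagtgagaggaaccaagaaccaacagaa
Dhrs3: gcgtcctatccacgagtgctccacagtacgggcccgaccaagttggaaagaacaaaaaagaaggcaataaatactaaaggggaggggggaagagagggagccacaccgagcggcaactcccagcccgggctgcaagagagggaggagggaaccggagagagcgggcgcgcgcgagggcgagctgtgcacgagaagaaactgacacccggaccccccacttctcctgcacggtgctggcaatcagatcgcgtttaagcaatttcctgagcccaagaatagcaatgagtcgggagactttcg
Rbp3: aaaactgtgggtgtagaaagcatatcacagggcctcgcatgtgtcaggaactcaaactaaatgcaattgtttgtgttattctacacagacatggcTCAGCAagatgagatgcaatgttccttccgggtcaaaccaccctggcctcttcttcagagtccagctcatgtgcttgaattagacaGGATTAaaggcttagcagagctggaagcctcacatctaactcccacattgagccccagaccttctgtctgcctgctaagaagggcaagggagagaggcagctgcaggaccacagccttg
The Abca4 window holds TAATCC on the opposite strand, with its first letter in the printed run at position -58 from the start, and the Rbp3 window holds it at position -69. Rdh12 holds TGCTGA at positions -196 and 8, and Rbp3 holds it at -155. The Dhrs3 window holds neither. Windows were found for 8 of the 9 genes (Rdh10 had none), 11 windows in all; TAATCC was in those of 2 genes and TGCTGA in those of 5. Among 32851 mouse windows of the same length, 7.06% held TAATCC and 19.5% held TGCTGA. The matches are letters in a sequence and not measured binding.

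**Figure D1:**
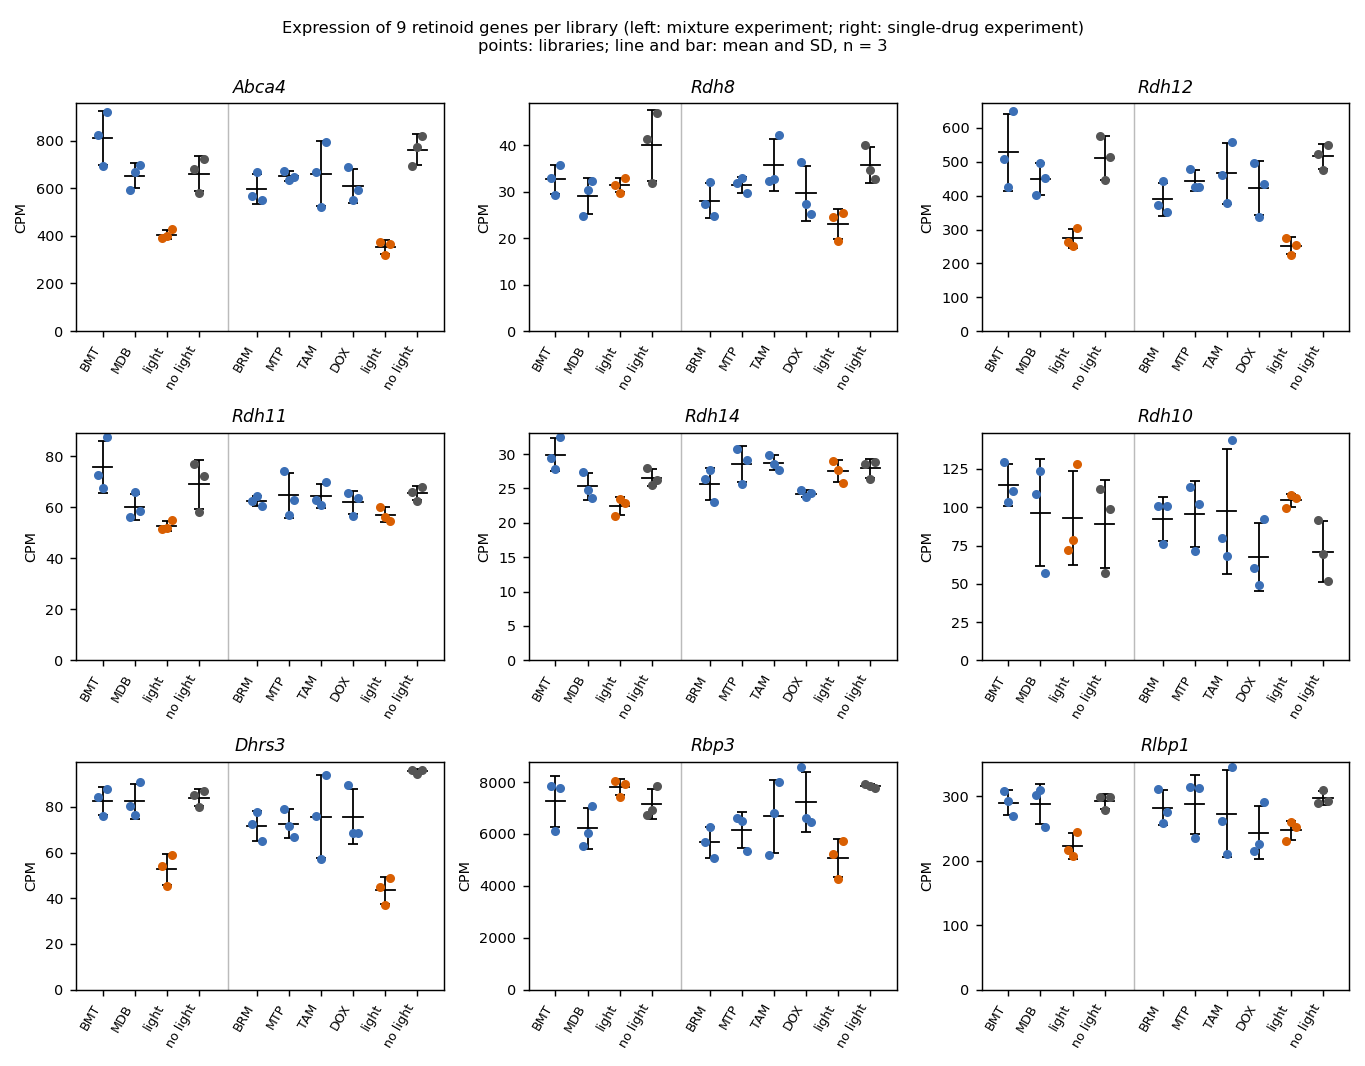
Expression in CPM (y axis from 0) of the 9 genes in every library; groups of the mixture experiment are left of the grey line and groups of the single-drug experiment right of it. Points are libraries and bars mean ± SD (n = 3); the light groups (orange) of Abca4, Rdh12 and Dhrs3 lie below every other group of their experiment.

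Light lowered 4 of the 9 genes and raised none in the mixture experiment, where 5.47% of all tested genes were called lower and 7.75% higher. It lowered 5 and raised none in the single-drug experiment, where 12.6% were called lower and 11.4% higher. The median log2 difference of the 9 genes was -0.39 in the mixture experiment, beside 0.01 over all tested genes, and -0.63 in the single-drug experiment, beside 0.02. The libraries of light and no light did not overlap for 6 of the 9 genes in the mixture experiment, where this held for 30.3% of all genes, and for 8 of the 9 in the single-drug experiment, where it held for 40.4%.

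Among the reductases, Rdh12 (ENSMUSG00000021123, chr12:79208914-79222665, plus strand), which reduces retinal in photoreceptor inner segments, had 264, 252 and 306 CPM in light retinas, against 576, 447 and 514 CPM in no-light retinas of the mixture experiment. Every light library was lower, by a log2 difference of -0.90 ± 0.15 (edgeR adjusted p = 0.00239). It had 276, 225 and 256 CPM in light retinas of the single-drug experiment, against 524, 476 and 549 CPM in its no-light retinas. The log2 difference was -1.03 ± 0.15 (edgeR adjusted p = 0.000259), which is 2.05-fold lower. Dhrs3 (ENSMUSG00000066026, chr4:144892827-144928209, plus strand) is a short-chain dehydrogenase that also reduces all-trans-retinal and is known from cone photoreceptors. It had 53.9, 45.4 and 58.8 CPM in light retinas, against 85.0, 79.9 and 86.9 CPM in no-light retinas of the mixture experiment, a log2 difference of -0.67 ± 0.10 (edgeR adjusted p = 0.000968). It had 44.9, 37.0 and 48.7 CPM in light retinas of the single-drug experiment, against 96.3, 94.6 and 96.2 CPM in its no-light retinas. With -1.14 ± 0.15 (edgeR adjusted p = 0.00018) this was the largest estimate of a light effect among the 9 genes, and the groups did not overlap in either experiment.

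Rdh8, the outer segment reductase that is disrupted in these mice, was called in the single-drug experiment and not in the mixture experiment, and the difference of its light effects was -0.28 ± 0.22 log2 (edgeR adjusted p = 0.564). It had 31.6, 29.8 and 32.9 CPM in light retinas of the mixture experiment, against 41.3, 31.8 and 46.9 CPM in its no-light retinas. The ranges overlapped, with 1 no-light library as low as the light ones, and the log2 difference of -0.35 ± 0.14 was not called (edgeR adjusted p = 0.137). The values were 24.6, 19.4 and 25.4 CPM in light retinas of the single-drug experiment, against 40.1, 34.6 and 32.7 CPM in no-light retinas, without overlap. There the log2 difference was -0.63 ± 0.15 (edgeR adjusted p = 0.00759). Without no-light replicate 2, the low library, the mixture experiment gave -0.50 (adjusted p = 0.0176).

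Rdh11 (ENSMUSG00000066441, chr12:79174337-79192293, minus strand) and Rdh14 (ENSMUSG00000020621, chr12:10390780-10395562, plus strand), more widely expressed retinal reductases, were not called in either experiment. Rdh11 had 51.4, 51.8 and 55.1 CPM in light retinas, against 76.8, 58.1 and 72.1 CPM in no-light retinas of the mixture experiment. Its log2 difference of -0.39 ± 0.12 stood at the threshold and was not called (edgeR adjusted p = 0.0501); the adjusted p was 0.0147 with DESeq2 and 0.0483 with RLE size factors. Rdh11 differed by -0.20 ± 0.09 in the single-drug experiment (adjusted p = 0.124). Rdh14 averaged 22.5 ± 1.31 CPM in light retinas and 26.6 ± 1.28 CPM in no-light retinas of the mixture experiment (SD, n = 3 each; edgeR adjusted p = 0.106). In the single-drug experiment it averaged 27.5 ± 1.58 CPM in light retinas and 27.9 ± 1.37 CPM in no-light retinas (edgeR adjusted p = 0.888). The 95% interval of that last log2 difference was -0.20 to 0.16, the narrowest of the 9 genes. Rdh11 and Rdh12 lie on opposite strands of chromosome 12, and 16621 bases separate their annotated spans.

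Rdh10 (ENSMUSG00000025921, chr1:16105774-16133734, plus strand) works in the other direction, oxidizing retinol, and is known from pigment epithelium and Müller glia. It had 72.3, 78.4 and 128 CPM in light retinas, against 112, 57.1 and 98.5 CPM in no-light retinas of the mixture experiment, with full overlap (log2 difference 0.06 ± 0.31, edgeR adjusted p = 0.929). It had 99.7, 108 and 106 CPM in light retinas of the single-drug experiment, against 91.6, 69.1 and 51.9 CPM in its no-light retinas. The light libraries were all higher there, but the log2 difference of 0.56 ± 0.28 was not called (edgeR adjusted p = 0.17). Its median coefficient of variation within a group was 30.0%, against 5.78 to 13.4% for the other 8 genes.

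Of the binding proteins, Rlbp1 (ENSMUSG00000039194, chr7:79374871-79387027, minus strand) had 216, 207 and 245 CPM in light retinas, against 299, 278 and 299 CPM in no-light retinas of the mixture experiment. The groups were apart, with a log2 difference of -0.39 ± 0.09 (edgeR adjusted p = 0.0164). It had 230.2, 259 and 252 CPM in light retinas of the single-drug experiment, against 289, 309 and 293 CPM in its no-light retinas, also without overlap, but the log2 difference of -0.27 ± 0.16 was not called (edgeR adjusted p = 0.253). Fitted on the light and no-light libraries alone, that difference had an adjusted p of 0.0321. The difference of the light effects on Rlbp1 was 0.12 ± 0.20 (edgeR adjusted p = 0.811). The call in the mixture experiment ended without no-light replicate 1 (adjusted p = 0.0560), without no-light replicate 3 (0.0622), without light replicate 1 (0.0697) and without light replicate 2 (0.0734).

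Rbp3 (ENSMUSG00000041534, chr14:33954022-33964216, plus strand) was the one member of the 9 whose light effect had opposite signs in the experiments. It had 8035, 7440.2 and 7916 CPM in light retinas of the mixture experiment, against 6742, 6905 and 7833 CPM in its no-light retinas, overlapping, with a log2 difference of 0.12 ± 0.12 (edgeR adjusted p = 0.555). It had 5234, 4253 and 5710.2 CPM in light retinas of the single-drug experiment, against 7933, 7865 and 7786 CPM in its no-light retinas. There it was 1.55-fold lower, with a log2 difference of -0.63 ± 0.16 (edgeR adjusted p = 0.00908); without light replicate 2, the lowest library, the adjusted p was 0.0537. In a fit of all 30 libraries the light effect on Rbp3 in the single-drug experiment minus that in the mixture experiment was -0.76 ± 0.21 (edgeR adjusted p = 0.122), and DESeq2 gave an adjusted p of 0.0150. None of the 9 differences was called by edgeR, as none of the 16645 genes tested was (0%). At an unadjusted p under 0.05 there were 3 of the 9 and 2518 of all genes, while DESeq2 called 1 of the 9, Rbp3, and 410 of all genes, and limma voom called none of the 9 and 11 of all genes. The other 2 below an unadjusted 0.05 were Abca4, at -0.40 ± 0.18, and Dhrs3, at -0.47 ± 0.19 log2, with edgeR adjusted p of 0.296 and 0.257.

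**Figure D2:**
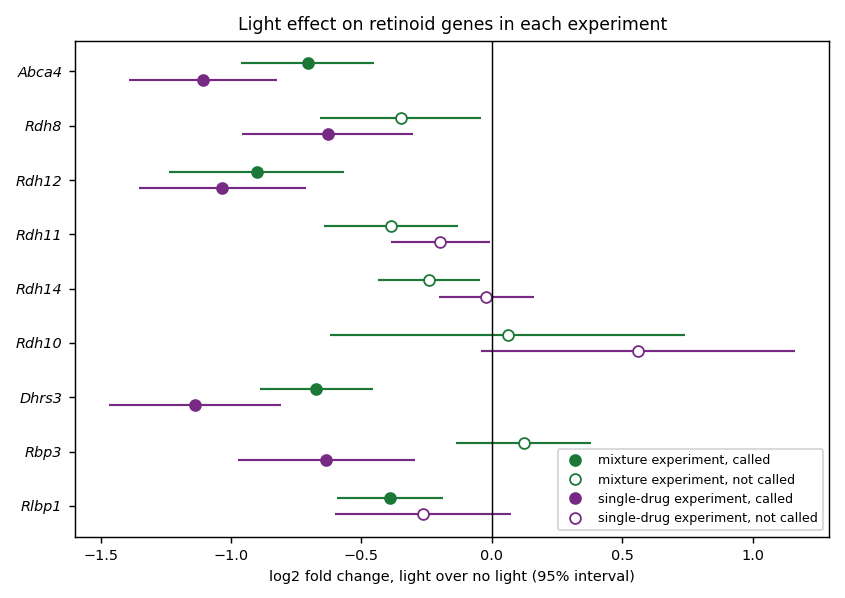
Log2 fold change of light over no light (x axis) for the 9 genes (y axis) in the mixture (green) and single-drug (purple) experiments; points are edgeR estimates, bars 95% intervals, filled points called at an adjusted p under 0.05. Abca4, Rdh12 and Dhrs3 are filled in both colours, and Rbp3 is on opposite sides of 0.

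Rod markers moved in the same comparisons. In the mixture experiment 16 of 17 were called lower with light (median log2 difference -0.88, range -1.43 to -0.35), and their summed level was between 49292 and 60674 CPM in light retinas and between 88645 and 106305 CPM in no-light retinas. All 17 were called lower in the single-drug experiment (median -1.39, range -1.82 to -0.88), with sums between 32635 and 44742 CPM in light retinas and between 99473 and 108440 CPM in no-light retinas. The light effects on Abca4, Rdh12 and Dhrs3 lay inside the rod range in both experiments. Those on Rbp3 and Rdh8 in the single-drug experiment were smaller than that of any of the 17 rod markers. Of 12 cone markers 8 were lower and 2 higher in the mixture experiment, and 9 lower and 2 higher in the single-drug experiment. Of 11 Müller glia markers 1 was lower and 2 higher in the mixture experiment, and 1 lower and 3 higher in the single-drug experiment. None of the tested pigment epithelium markers (14 in the mixture experiment and 13 in the single-drug experiment) and none of 6 lens fibre markers was called with light. The part of the rod marker change in these results was not tested.

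Given before light, the BMT mixture left 6 of the 9 genes higher than light alone, and none lower, where 7.96% of all genes were called higher and 9.78% lower. Abca4 had 825, 692 and 919 CPM in BMT retinas, against 390.1, 399 and 428 CPM in light retinas. This was 2.00-fold (log2 1.00 ± 0.12, edgeR adjusted p = 0.000251), the largest drug effect on any of the 9. Rdh12 had 508, 425 and 651 CPM in BMT retinas, 1.93-fold the light level (edgeR adjusted p = 0.00179). Dhrs3 had 84.2, 76.0 and 87.8 CPM, 1.57-fold (edgeR adjusted p = 0.00129). The other 3 were Rdh11 (log2 0.52 ± 0.12, edgeR adjusted p = 0.0109), Rdh14 (0.41 ± 0.09, 0.00906) and Rlbp1 (0.38 ± 0.09, 0.0166). BMT was the one treatment of the 6 after which Rdh11 and Rdh14 were called, although between BMT and MDB they differed by 0.33 ± 0.12 and 0.24 ± 0.09 log2, not called (edgeR adjusted p = 0.195 and 0.2). Rdh11 had 72.5, 67.5 and 87.4 CPM in BMT retinas, against 51.4, 51.8 and 55.1 CPM in light retinas. Rdh14 had 29.5, 27.8 and 32.5 CPM in BMT retinas, against 21.0, 23.5 and 22.9 CPM in light retinas, and neither overlapped. Without BMT replicate 3 the adjusted p of Rdh11 was 0.05003, just past the threshold. Rlbp1 missed it without light replicate 1 (0.0688), without light replicate 2 (0.0685) and without BMT replicate 1 (0.0593).

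The MDB mixture left 4 of the 9 genes higher than light alone, and none lower, where 3.70% of all genes were called higher and 5.93% lower. Abca4 had 593, 668 and 696 CPM in MDB retinas, a log2 difference of 0.69 ± 0.12 from light (edgeR adjusted p = 0.0029). Rdh12 had 401, 496 and 453 CPM (log2 0.71 ± 0.15, edgeR adjusted p = 0.0118), Dhrs3 80.2, 76.2 and 90.8 CPM (0.65 ± 0.10, 0.00171) and Rlbp1 302, 309.9 and 253 CPM (0.37 ± 0.09, 0.0266). All MDB libraries were above all light libraries for these 4. Both Rdh12 and Rlbp1 lost the call without light replicate 1 (0.0563 and 0.107), without light replicate 2 (0.0587 and 0.115) and without MDB replicate 2 (0.0524 and 0.107); Rlbp1 also lost it without MDB replicate 1 (0.0979). Rbp3 stood apart in the other direction, with 5544, 6043 and 7086 CPM in MDB retinas, all below the 8035, 7440.2 and 7916 CPM of light retinas. That log2 difference of -0.32 ± 0.12 was not called (edgeR adjusted p = 0.118; DESeq2 0.0372).

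Each single drug left the same 3 genes higher than light alone, Abca4, Rdh12 and Dhrs3; the 4 comparisons share their light libraries. In all, 3 of the 9 genes were called higher after BRM, where 7.08% of all genes were called higher, 3 after MTP (5.37%), 4 after TAM (6.60%) and 4 after DOX (6.79%). None of the 9 was called lower, as were 7.32% of all genes after BRM, 4.91% after MTP, 4.00% after TAM and 5.06% after DOX. Abca4 had 566, 668 and 552 CPM in BRM retinas, 674, 633 and 648 in MTP retinas, 668, 523 and 794 in TAM retinas and 691, 553 and 591 in DOX retinas, against 374, 319.8 and 367 CPM in light retinas. Every drug library was above every light library. The log2 differences were 0.75 ± 0.13, 0.88 ± 0.13, 0.90 ± 0.13 and 0.79 ± 0.13 in the same order, with edgeR adjusted p between 0.00113 and 0.00353. Rdh12 had 372, 443 and 351 CPM in BRM retinas, 479, 426 and 426 in MTP retinas, 462, 379 and 559 in TAM retinas and 497, 337 and 434 in DOX retinas, against 276, 225 and 256 CPM in light retinas. Its log2 differences were 0.63 ± 0.15, 0.82 ± 0.15, 0.89 ± 0.15 and 0.74 ± 0.15, with edgeR adjusted p between 0.00194 (TAM) and 0.0126 (BRM). The BRM call on Rdh12 ended without BRM replicate 2 (0.0694) and without light replicate 2 (0.0655). Dhrs3 had 72.4, 77.6 and 64.9 CPM in BRM retinas, 79.3, 71.7 and 66.7 in MTP retinas, 75.9, 57.3 and 93.9 in TAM retinas and 89.6, 68.5 and 68.8 in DOX retinas, against 44.9, 37.0 and 48.7 CPM in light retinas. Its log2 differences lay between 0.72 ± 0.15 (BRM) and 0.80 ± 0.15 (TAM), with edgeR adjusted p between 0.0046 and 0.00732. The TAM call on Dhrs3 ended in a fit of TAM and light libraries alone (0.0690).

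The further member called after TAM was Rdh8, with 32.3, 32.8 and 42.2 CPM in TAM retinas, against 24.6, 19.4 and 25.4 CPM in light retinas (log2 0.63 ± 0.15, edgeR adjusted p = 0.0165). The groups were apart, but the call ended without TAM replicate 3 (0.112) and without light replicate 2 (0.0832). After the other drugs the log2 difference of Rdh8 from light was 0.28 ± 0.15 (BRM), 0.44 ± 0.15 (MTP) and 0.36 ± 0.15 (DOX), not called by edgeR. DESeq2 called Rdh8 after MTP (0.0309) and Rbp3 after TAM (0.0444). In the mixture experiment, where it was not called with light, Rdh8 differed from light by 0.06 ± 0.14 in BMT retinas and -0.11 ± 0.14 in MDB retinas. The further member called after DOX was Rbp3, with 8563, 6626 and 6477 CPM in DOX retinas, against 5234, 4253 and 5710.2 CPM in light retinas (log2 0.51 ± 0.16, edgeR adjusted p = 0.0486). This call sat at the threshold: it ended without DOX replicate 1 (log2 0.37, adjusted p = 0.227), without DOX replicate 2 (0.0597), without light replicate 1 (0.1001) and without light replicate 2 (0.194). Rlbp1 differed from light by log2 values between -0.02 (DOX) and 0.22 (MTP), and Rdh11 by 0.12 (DOX) to 0.18 (MTP); none of these was called. Rdh10 was lowest after DOX, with 60.2, 49.5 and 92.6 CPM, all below the 99.7, 108 and 106 CPM of light retinas (log2 -0.63 ± 0.28, edgeR adjusted p = 0.153).

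Rod markers were higher after every drug treatment as well. Of the 17, 17 were called higher after BMT (median log2 difference 0.86), 16 after MDB (0.68), 16 after BRM (0.95), and 17 each after MTP (1.03), TAM (1.07) and DOX (1.03). Cone markers called higher numbered 7 or 8 of 12 in each of the 6 comparisons, with 1 or 2 lower. Müller glia markers summed to between 4046 and 4591 CPM in MDB retinas, against 2650 and 2871 CPM in light retinas. They summed to between 4485 and 5098 CPM in BRM retinas, against 3592 and 3794 CPM in light retinas. After BMT, MTP, TAM and DOX the Müller glia sums overlapped those of light. No pigment epithelium or lens fibre marker was called. The lens fibre sums ran between 3245 and 4310 CPM in MDB retinas, against 63.1 and 1529 CPM in light retinas of the mixture experiment. They ran between 2336 and 6410 CPM in BRM retinas, against 1354 and 2014 CPM in light retinas of the single-drug experiment. Neither pair of ranges overlapped, while the lens fibre sums after BMT, MTP, TAM and DOX overlapped those of light. Müller glia sums often rose with lens fibre sums between libraries of a group. DOX replicate 2 had 4543 CPM (Müller glia) and 5580 CPM (lens fibre), against 2712 and 213 CPM in DOX replicate 1. In light retinas of the single-drug experiment, replicate 1 had the highest lens fibre sum and replicate 2 the highest Müller glia sum. The part of lens fibre content in the Müller glia sums after MDB and BRM was not tested. The part of these rod and Müller glia marker differences in the drug results was not tested.

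**Figure D3:**
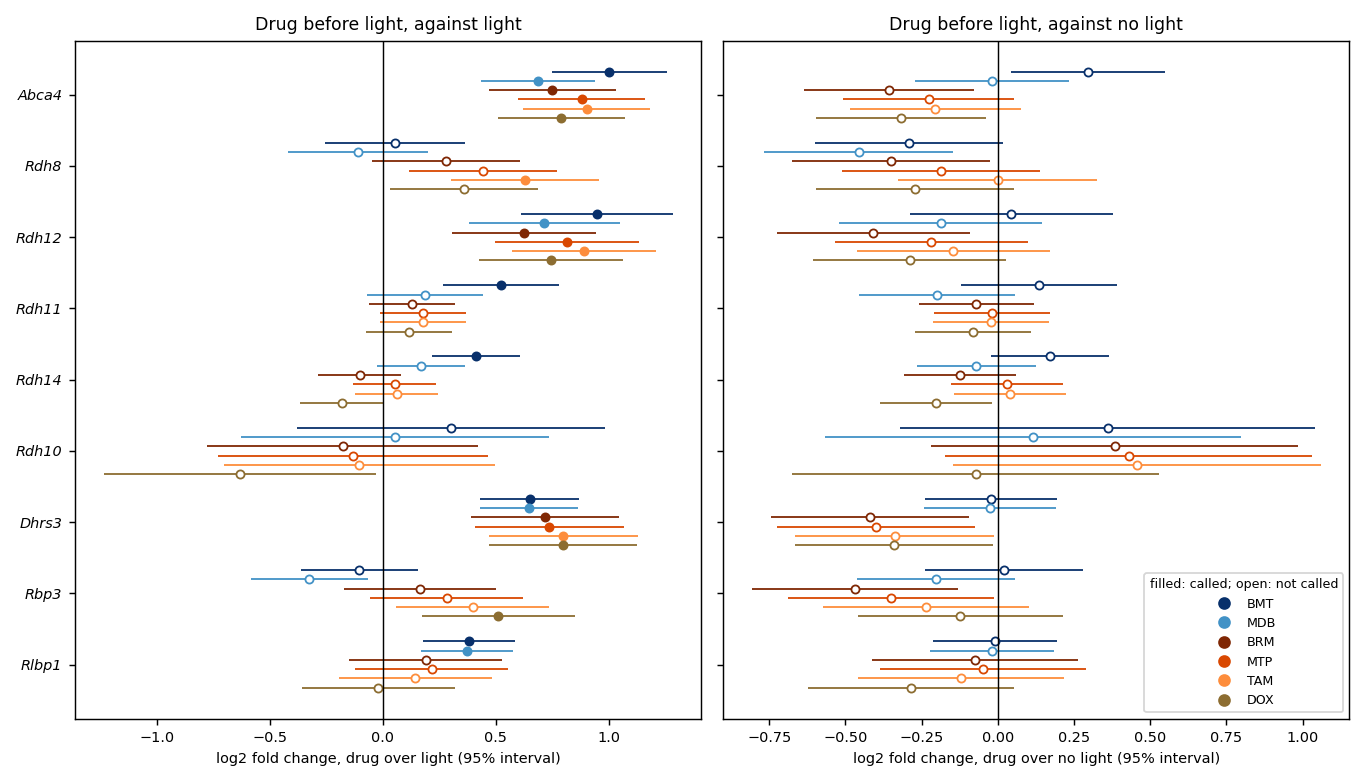
Log2 fold change of each drug treatment over light (left) and over no light (right) for the 9 genes (y axis), with 95% intervals as bars; colours are the 6 treatments, and filled points were called at an adjusted p under 0.05. Abca4, Rdh12 and Dhrs3 are filled for all 6 treatments on the left, and no point is filled on the right.

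Against no light, none of the 9 genes was called after any treatment, and neither was any of the other genes tested (0% in each of the 6 comparisons, by edgeR). At an unadjusted p under 0.05 there were 1 (BMT), 1 (MDB), 5 (BRM), 2 (MTP), 1 (TAM) and 3 (DOX) of the 9. Over all genes there were 1009 (BMT) and 1642 (MDB) of 16007 tested. In the single-drug experiment there were 2535 (BRM), 1395 (MTP), 1327 (TAM) and 2110 (DOX) of 16249 tested. DESeq2 and limma voom called none of the 9 either; over all genes DESeq2 called between 3 (MTP) and 381 (BRM). A missed threshold does not show that levels had returned to those of no light, and the intervals are wide. After BMT, Abca4 averaged 812 ± 114 CPM in BMT retinas and 662 ± 75.0 CPM in no-light retinas (SD, n = 3 each). That log2 difference of 0.30 ± 0.12 had a 95% interval of 0.04 to 0.55. After the other 5 treatments the log2 difference of Abca4 from no light was between -0.36 (BRM) and -0.02 (MDB). As a gene sum, Dhrs3 differed from no light by -0.02 ± 0.10 after BMT and -0.03 ± 0.10 after MDB. For its main transcript, Dhrs3-201, the differences in log2(FPKM + 1) were -0.24 after BMT and -0.61 after MDB, not called (limma adjusted p = 0.90 and 0.454). After the single drugs the log2 differences of the gene sum from no light were -0.42 (BRM), -0.40 (MTP), -0.34 (TAM) and -0.34 (DOX). All 12 of those drug libraries were below all 3 no-light libraries, and the edgeR adjusted p lay between 0.22 and 0.603. Rdh8 differed from no light by -0.29 ± 0.14 after BMT, -0.46 ± 0.14 after MDB and -0.00083 ± 0.15 after TAM. Rbp3 after BRM had 5703, 6252 and 5078 CPM, all below the 7933, 7865 and 7786 CPM of no-light retinas (log2 -0.47 ± 0.16, edgeR adjusted p = 0.197). Whether single drugs and mixtures differ cannot be told apart from the difference between the experiments.

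The order of group means describes the same values again and adds no further test. Within the mixture experiment Abca4, Rdh12, Rdh11 and Rdh14 ran BMT, no light, MDB, light from high to low. For each of these genes 2 of the 3 neighbouring pairs of groups overlapped, and only MDB and light were apart. The libraries of MDB and light did not overlap for 7 of the 9 genes, with Rbp3 lower and Abca4, Rdh11, Rdh12, Rdh14, Dhrs3 and Rlbp1 higher in MDB retinas, where this held for 33.2% of all genes. In the single-drug experiment Abca4, Rdh8 and Rdh12 ran no light, TAM, MTP, DOX, BRM, light; among the drugs, neighbours overlapped for each of the 9 genes. The mixtures differ in 1 component, TAM in BMT and DOX in MDB, and neither BMT against MDB nor TAM against DOX called any of the 9 or any other gene by edgeR (0% in both). At an unadjusted p under 0.05 there were 3 of the 9 and 3001 of all genes between the mixtures, and 1 of the 9 and 2519 of all genes between TAM and DOX; DESeq2 called none of the 9 in either, with 617 and 109 of all genes. All 9 estimates were higher in BMT than in MDB retinas, with a median log2 difference of 0.23, beside -0.01 over all genes. Rdh11 differed by 0.33 ± 0.12 and Abca4 by 0.32 ± 0.12 log2 (edgeR adjusted p = 0.195 and 0.2). The BMT and MDB means were close for Rlbp1 (290.0 and 288.2 CPM) and Dhrs3 (82.6 and 82.4 CPM). In some alternatives the sign turned for Rlbp1, Dhrs3, Rdh10 and Rdh8. Rod and cone markers also had medians above 0 (0.19 and 0.27 log2), with none called. Between TAM and DOX the 95% interval of the log2 difference was -0.17 to 0.39 for Abca4, -0.17 to 0.46 for Rdh12 and -0.32 to 0.33 for Dhrs3.

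Rdh10 and the pigment epithelium markers both varied widely between libraries of a group. The library with the lowest summed level of 14 pigment epithelium markers in its group also had the lowest Rdh10 in 7 of 10 groups, and the library with the highest sum had the highest Rdh10 in 7 of 10. For Rlbp1 these were 5 and 7 groups, for Dhrs3 3 and 6, for Rdh8 4 and 5, for Rbp3 3 and 5 and for Abca4 5 and 4. Rdh11 and Rdh12 each had 4 and 4, and Rdh14 had 5 and 1. With 3 libraries a group some matches arise by chance, and none of these counts was tested. In the no-light retinas of the single-drug experiment the summed markers ran between 279 and 1552 CPM and Rdh10 between 51.9 and 91.6 CPM. Rdh10 is not among the 14 markers. With a pigment epithelium score as a covariate, an alternative added after the data were seen, the light effect on Rdh10 in the single-drug experiment was 0.58 on the log2 scale (adjusted p = 0.0382), against 0.56 without it. With the same covariate the calls on Abca4, Rdh12 and Dhrs3 in the light comparisons and the 6 comparisons of a drug with light held. With a lens fibre score as covariate they held too, while Rlbp1 after MDB did not (adjusted p = 0.0761). The lens fibre covariate also brought calls on 2 genes with light in the mixture experiment, Rdh8 (-0.38, adjusted p = 0.0455) and Rdh11 (-0.42, adjusted p = 0.0077). No-light replicate 2, the lowest no-light library for both genes, had a lens fibre sum of 6298 CPM, against 145.6 and 146 CPM in the other no-light libraries of that experiment. The call on Rbp3 after DOX ended with either covariate (adjusted p = 0.0717 with the lens fibre score and 0.0502 with the pigment epithelium score).

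**Figure D4:**
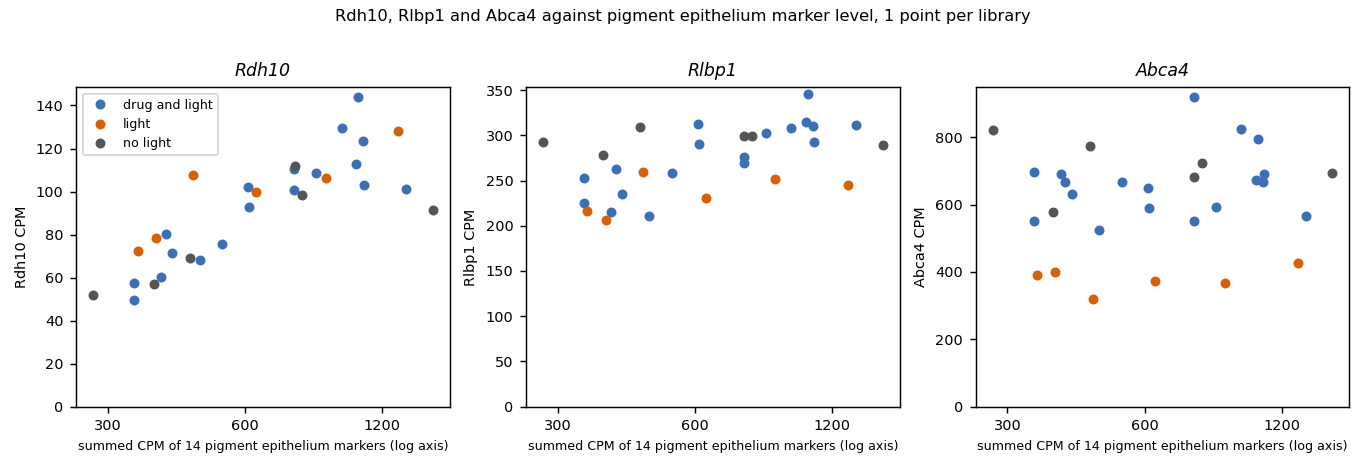
CPM of Rdh10, Rlbp1 and Abca4 (y axes from 0) against the summed CPM of 14 pigment epithelium markers (x axis, log scale), with 1 point for each of the 30 libraries. Rdh10 runs between 49.5 and 143.8 CPM across the libraries, while the Abca4 light libraries (orange) lie below all others at every marker level.

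At the transcript level the Abca4 transcript annotated as protein coding was called with light in both experiments. The annotation is of the reference gene, and Abca4 is disrupted in these mice. Of 39616 transcripts tested in the mixture experiment 2.82% were called with light, and of 42122 in the single-drug experiment 5.12%. Of the 8 Abca4 transcripts tested in each, 2 were called in the mixture experiment, Abca4-001 at -0.69 ± 0.11 (edgeR adjusted p = 0.00889) and Abca4-002 at -1.78 ± 0.32 (0.0132), and 1 in the single-drug experiment, Abca4-001 at -1.09 ± 0.13 (0.000596). Abca4-002, a processed transcript from the 5′ part of the gene, had 15.05 to 104 counts per library and was not called in the single-drug experiment (-0.92 ± 0.53, adjusted p = 0.439). Rdh8-201 was called in the single-drug experiment (-0.61 ± 0.16, edgeR adjusted p = 0.0396) and not in the mixture experiment (-0.35 ± 0.15, 0.321). The call on Rdh8-201 ended in all 6 fits that left out a library (adjusted p between 0.0565 and 0.201), with the replicate block (0.0613) and with no filter on low counts (0.0687), and held with RLE size factors and limma voom. In the mixture experiment the call on Abca4-001 ended without light replicate 1 (0.0548), and that on Abca4-002 without no-light replicate 3 (0.0614), without light replicate 2 (0.0661) and without light replicate 3 (0.0564). After a drug, Abca4-001 was called higher than light in all 6 comparisons, with log2 differences between 0.64 (MDB) and 1.04 (BMT) and edgeR adjusted p between 0.00130 and 0.0180. Of the 39616 transcripts tested in the mixture experiment, 684 were called higher than light after BMT and 278 after MDB. Of the 42122 tested in the single-drug experiment, 415 (BRM), 418 (MTP), 515 (TAM) and 396 (DOX) were.

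The count of Dhrs3 is split over several transcripts. The gene has 7 annotated transcripts, and the one with the highest median share, the protein-coding Dhrs3-201, took a median of 36.9% of the gene's count. In the light retinas of the single-drug experiment Dhrs3-201 had 328, 0.0412 and 141 expected counts, against 728, 737 and 744 in no-light retinas. In the mixture experiment it had 405, 458 and 293 in light retinas, against 660.5, 802 and 793 in no-light retinas. In light replicate 2 of the single-drug experiment, where this transcript was near 0, the gene as a whole had 37.0 CPM. There eXpress gave 45.5% of the gene's count to Dhrs3-001, 36.1% to Dhrs3-003 and 9.71% to Dhrs3-002. Fragments that match several transcripts are divided between them by eXpress, so a transcript count is less certain than the gene sum. Whether Dhrs3-201 was absent or its fragments were given to other transcripts was not tested. With the authors' FPKM of Dhrs3-201 in place of gene counts, the call against light held after each of the 4 single drugs at a pseudocount of 1. At a pseudocount of 0.1 the log2 difference came to between 3.40 and 3.70 and was not called in any of the 4 (limma adjusted p between 0.0667 and 0.0824).

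The authors' deposited tables of changed transcripts list Abca4-001 in both experiments. For the mixture experiment the authors' deposited table gives Abca4-001 a log2 difference from light of 1.01 for BMT, 0.65 for MDB and 0.67 for no light. For the single-drug experiment the authors' deposited table gives it 0.70 for BRM, 0.88 for MTP, 0.88 for TAM, 0.76 for DOX and 1.08 for no light. Of the other 8 genes, the authors' deposited table of the mixture experiment (521 transcripts) lists Dhrs3-201, at 0.86 for BMT, 0.49 for MDB and 1.12 for no light. The authors' deposited table of the single-drug experiment (622 transcripts) lists Rdh12-001, between 0.60 (BRM) and 0.86 (TAM) for the drugs and 1.01 for no light.

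For the other genes of retinoid handling, the shares of all tested genes to set beside their counts are 5.47% called lower and 7.75% higher in the mixture experiment, and 12.6% lower and 11.4% higher in the single-drug experiment. Of 9 tested genes of the visual cycle in the pigment epithelium, 1 was called higher and 0 lower in the mixture experiment. In the single-drug experiment 2 were called higher and 0 lower. Rbp4, the retinol carrier of blood, was among these 2 (1.53 ± 0.42, adjusted p = 0.0144, edgeR). It averaged 1.41 CPM in light retinas and 0.485 CPM in no-light retinas of the single-drug experiment, a low level. Of 14 other retinoid dehydrogenases and reductases, 8 were tested in the mixture experiment with 1 lower, Dhrs7 (-0.34 ± 0.09, adjusted p = 0.026), and 9 in the single-drug experiment with 3 lower, Dhrs7 among them (-0.33 ± 0.11, adjusted p = 0.0436). Of 14 tested genes of retinoic acid synthesis, binding, breakdown and reception none was called in the mixture experiment by edgeR, and 3 were lower in the single-drug experiment. One of these was the receptor Rxra (-0.86 ± 0.13, adjusted p = 0.000273), which differed by -0.22 ± 0.10, adjusted p = 0.199 in the mixture experiment. Of 7 tested genes of retinyl ester and carotenoid handling, Scarb1, a receptor that takes up lipids and carotenoids, was lower in both (-0.39 ± 0.11, adjusted p = 0.0329 in the mixture experiment and -0.94 ± 0.14, adjusted p = 0.000299 in the single-drug experiment). Pnpla2, a lipid hydrolase, was among 2 called higher in the single-drug experiment (0.61 ± 0.19, adjusted p = 0.0276).

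Of 11 tested ABCA transporters other than Abca4, light lowered 4 and raised 1 in the mixture experiment and lowered 5 and raised 1 in the single-drug experiment, beside 5.47% of all tested genes lower and 7.75% higher in the mixture experiment and 12.6% lower and 11.4% higher in the single-drug experiment. Abca8a averaged 74.5 CPM in light retinas and 128 CPM in no-light retinas of the mixture experiment (-0.78 ± 0.14, adjusted p = 0.00299, edgeR), and 82.7 CPM in light retinas and 153 CPM in no-light retinas of the single-drug experiment (-0.89 ± 0.21, adjusted p = 0.00662). Abca6, at 2.74 CPM in light retinas and 6.60 CPM in no-light retinas of the mixture experiment, differed by -1.27 ± 0.20, adjusted p = 0.00164, and by -1.25 ± 0.31, adjusted p = 0.0089 in the single-drug experiment. Abca8b was the gene called higher in the mixture experiment (0.35 ± 0.07, adjusted p = 0.00561). The median log2 difference of the 11 was -0.14 in the mixture experiment and -0.19 in the single-drug experiment.

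By the root mean square difference of centred log2 group means over the 10 groups, among 10397 genes with a mean of at least 3 on the log2 CPM scale, the genes most like Abca4 were Ccdc126 (0.0455), Vldlr (0.0501) and Cngb3 (0.0534), beside a range of Abca4 itself of 1.13. Those most like Rdh8 were Ypel2 (0.0801), BC033916 (0.0803) and Cerk (0.0816), beside a range of 0.65. Those most like Rlbp1 were Rpe (0.0277), Kdm3a (0.0327) and Lysmd3 (0.0432), beside a range of 0.43. Rpe is the symbol of a gene (ENSMUSG00000026005) and not short for the pigment epithelium. These distances describe group means only and carry no test.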

How the data were processed

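Expected counts were made by the authors with eXpress from reads trimmed with Trimmomatic, with Bowtie2 and TopHat2 also named, on GRCm38.p3, per the submitters' processing notes (no versions named there). The deposited count tables list 102906 transcripts. Deposited FPKM come in separate tables, as eXpress wrote them (used for levels per length) and as scaled by TMM by the authors (used in an alternative). The authors' deposited tables of changed transcripts give log2 differences from light, with 1 adjusted p-value per transcript for any difference between groups. Expected counts were summed per gene, rounded, filtered with filterByExpr, scaled by TMM and fitted by experiment with the quasi-likelihood test of edgeR 4.0.16 (R 4.3.3), with two-sided p-values adjusted by Benjamini-Hochberg over all genes of a comparison and called under 0.05; there were 17 comparisons. CPM are counts scaled to the TMM-scaled library totals. SEs were derived from the log2 difference and the F statistic, and intervals are at 95%. The members and the gene lists were chosen with earlier results of these data known. Genes named from the lists are among the 3 per list that the named-genes rule gives, not all of which are described: those tested whose adjusted p for light against no light was smallest in the mixture experiment; Rdh8, Abca4 and Rlbp1 were compared with all genes for like profiles. Alternatives were RLE size factors, no filter, DESeq2 1.42.0, limma voom (limma 3.58.1), a replicate block, fits of the groups compared alone, each library left out, and log2(FPKM + 1) and log2(FPKM + 0.1) of the most abundant transcript; covariates for lens fibre and pigment epithelium scores were added after the data were seen. Depth limits the counting error alone, to which the spread between libraries adds. Some results on genes of these lists are not reported here. The tests were tested on simulated data.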

Additional observations from a re-analysis of the deposited data

How the results depend on the processing

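Over the 9 genes and 17 comparisons, 2432 of 2484 recomputed values kept their side of the threshold, 2320 of them with the same direction and 112, all uncalled, with the other sign. Another 39 kept the direction and lost the call, 13 gained it and 0 of the called ones reversed. The number of the 9 genes called ran between 2 and 4 for MDB against light as single libraries were left out (main value 4); elsewhere it stayed within 1.5 times its main value, except for TAM against light fitted on those groups alone (2, main value 4), DOX against light with log2(FPKM + 0.1) (2, main value 4) and the difference of light effects with DESeq2 (1, main value 0). For TAM this ended the calls on Rdh8 (adjusted p = 0.0725) and Dhrs3 (0.0690). Log2(FPKM + 1) ended that on Dhrs3 after MDB (0.194). Of the Abca4 and Rdh8 transcripts, 1 to 2 were called in the mixture experiment as libraries were left out (main value 2), and in the single-drug experiment 1, Abca4-001, in each such fit and with no filter on low counts (main value 2, with Rdh8-201).

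With the replicate number as a block, 1 transcript, Abca4-001, was called in the single-drug experiment, and Rbp3 after DOX was no longer called (adjusted p = 0.0725); no other call on the 9 genes changed. The labels do not pair the samples by these numbers. Of the pairs of same-numbered libraries, 2 of 18 (mixture) and 13 of 45 (single-drug) correlated above 0.1 in their deviations from the group means. The highest r was 0.556 and 0.437. The mean r was 0.0145 for same-numbered and -0.0063 for different-numbered pairs in the mixture experiment. In the single-drug experiment it was -0.0019 and 0.0018. These correlations alone do not decide whether the samples were paired.

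Counts over all genes that left 1.5 times their main value were, against light, 1660 with the pigment epithelium covariate, 1767 and 1664 with FPKM (pseudocounts 1 and 0.1) beside 2840 (BMT), 1027 and 927 beside 1542 (MDB), 298 on the groups alone beside 1722 (TAM), 1065 on the groups alone and 1158 with FPKM at 0.1 beside 1927 (DOX), and at 0.1 also 1520 beside 2341 (BRM), 1082 beside 1671 (MTP) and 1346 beside 2117 (light against no light, mixture). Against no light, edgeR called 0 genes, DESeq2 13 (BMT), 22 (MDB), 381 (BRM), 3 (MTP), 7 (TAM) and 11 (DOX), the fit of DOX and no light alone 34, and FPKM at most 7 (MDB). As libraries were left out the counts ran between 1310 and 2781 (light, mixture), 2550 and 3605 (light, single-drug), 1514 and 2589 (BMT), 919 and 1376 (MDB), 910 and 2491 (BRM), 801 and 1313 (MTP), 597 and 2446 (TAM), 443 and 2283 (DOX), 0 and 48 (TAM against DOX) and 0 and 126 (difference of light effects). The causes were not tested. RLE scaling moved no median over all genes by more than 0.03 on the log2 scale. With 3 libraries a group and 353 counts or more per gene and library, the tests read the spread between libraries, of which counting error is a part.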
